A study of Mus musculus with 15 samples.

Results

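The Hox genes of the mouse colon were followed over 15 Affymetrix Mouse430_2 expression arrays, which read the RNA of a gene with sets of short probes (probe sets). A gene was a member if its single annotated symbol was Hox followed by the cluster letter a, b, c or d and a paralogue number. Of the 39 Hox genes in the RefSeq table, 33 were measured, among 18193 genes with 1 annotated symbol. They were 9 of 11 genes of Hox A on chromosome 6, 9 of 10 of Hox B on chromosome 11, 7 of 9 of Hox C on chromosome 15 and 8 of 9 of Hox D on chromosome 2. By paralogue number, 10 were anterior (1 to 4), 9 central (5 to 8) and 14 posterior (9 to 13). Hoxb8 and Hoxd4 lay only on probe sets that carry several symbols, and the remaining genes without a value were not analysed here. For the 11 members with more than 1 probe set, the one with the highest mean over the 15 arrays was used.

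Hox genes encode homeodomain transcription factors that give cells their position along the head to tail axis. They lie in 4 clusters, and their order on the chromosome follows the order in which they are used along the body, so that posterior genes mark the hindgut. In the gut they are expressed in both the epithelium and the surrounding mesenchyme, and caudal homeobox factors, retinoic acid and the Polycomb and trithorax chromatin complexes are known to control them.

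All mice were male littermates aged 3 months on a hybrid background of C57BL/6 and 129, and each of the 5 groups held 3 arrays. The double mutant mice were APC+/- and Olfm4-/-, and gave the tumour group and a group of tissue next to a tumour, here called adjacent. The Olfm4 mutant mice were APC+/+ and Olfm4-/-, the APC mutant mice were APC+/- and OLFM4(+/+), and the wild type mice carried both genes intact. Apc is a brake on the Wnt pathway, and Olfm4 a glycoprotein secreted by crypt cells and neutrophils. The titles show 2 animals behind the double mutant arrays, 1 of which gave 2 of the 3 arrays in each of the tumour and adjacent groups. For Olfm4 mutant replicate 3, the animal number in its title reads as if made from the digits of both others of that group. The main model took each array as independent. In the double mutant groups the p-values below thus rest in part on spread within 1 animal, and do not measure the spread between animals alone. That spread may in part be technical, and the numbers of animals and arrays limit the precision. The labels used here do not place a piece along the colon.

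Other features of the arrays moved with the groups. Bacterial RNAs added to each sample gave a 3-prime minus 5-prime difference of 4.98 ± 0.246 log2 units in tumour, 4.12 ± 0.284 in adjacent, 2.70 ± 0.528 in Olfm4 mutant, 2.23 ± 0.195 in APC mutant and 2.05 ± 0.0797 in wild type arrays (SD, n = 3 each), and the numbers of the arrays run through the groups in blocks. Epithelium markers averaged 13.21, 13.14 and 13.03 log2 units in tumours, below the 12 other arrays (13.47 to 13.86), and 6 of 10 were lower in tumours than in adjacent tissue (limma, adjusted p below 0.05). All 12 of 12 smooth muscle markers were lower there too. Of the other cell types, 6 of 6 neutrophil markers were higher in tumours than in adjacent tissue, and 5 of 9 neuron and glia and 6 of 7 B cell markers were lower. Of 10 fibroblast markers 2 were higher and 1 lower, of 5 adipocyte markers 1 was lower, and of 8 endothelium markers 0 were called. Over all genes 14.3% were higher and 13.8% lower in this comparison. In such bulk samples, fewer cells of a type and less RNA per cell cannot be told apart. The deposited values carry no detection call. Hoxc8 stood between 3.14 and 3.75, Hoxc13 between 3.33 and 3.66, and Hoxd1 between 3.01 and 3.45 on all arrays, near the lowest value in the table of 2.56.

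Promoters were printed for those 4 of the 7 genes described in full below that the RefSeq promoter table holds. Each stretch has 300 bases, from 250 before to 50 after a start site, on GRCm38.p6, read in the direction of the gene. Hoxa2 is at chr6:52164782-52165081 and Hoxa9 at chr6:52227321-52227620, both on the minus strand. Hoxd8 is at chr2:74704365-74704664 and Hoxd10 at chr2:74691641-74691940, both on the plus strand. Capitals mark matches to a searched motif on either strand.
Hoxa2: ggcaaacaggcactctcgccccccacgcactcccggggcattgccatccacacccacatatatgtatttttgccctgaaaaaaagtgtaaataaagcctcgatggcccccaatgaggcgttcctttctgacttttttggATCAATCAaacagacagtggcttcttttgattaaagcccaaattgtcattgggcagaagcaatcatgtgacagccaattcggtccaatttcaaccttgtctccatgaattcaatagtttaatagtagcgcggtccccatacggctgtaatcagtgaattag
Hoxa9: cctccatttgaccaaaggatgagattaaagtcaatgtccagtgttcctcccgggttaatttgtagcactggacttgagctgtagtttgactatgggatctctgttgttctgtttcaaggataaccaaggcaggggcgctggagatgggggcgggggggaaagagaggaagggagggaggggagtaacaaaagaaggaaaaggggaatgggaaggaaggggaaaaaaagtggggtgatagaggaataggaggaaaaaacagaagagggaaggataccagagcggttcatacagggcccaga
Hoxd8: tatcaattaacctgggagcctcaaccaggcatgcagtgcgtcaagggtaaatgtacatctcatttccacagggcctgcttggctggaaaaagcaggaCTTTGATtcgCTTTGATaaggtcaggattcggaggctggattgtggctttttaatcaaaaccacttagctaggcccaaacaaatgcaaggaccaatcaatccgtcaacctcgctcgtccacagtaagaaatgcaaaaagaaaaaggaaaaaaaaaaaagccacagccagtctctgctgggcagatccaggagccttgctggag
Hoxd10: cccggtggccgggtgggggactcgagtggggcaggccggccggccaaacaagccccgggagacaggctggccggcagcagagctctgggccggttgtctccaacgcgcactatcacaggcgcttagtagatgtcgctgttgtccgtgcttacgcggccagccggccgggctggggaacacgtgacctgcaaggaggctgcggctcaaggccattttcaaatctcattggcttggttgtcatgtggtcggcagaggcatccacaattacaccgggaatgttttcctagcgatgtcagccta
The Hoxd8 stretch held the TCF/LEF motif CTTTGAT at -153 and again at -143 from the start site. It was the 1 match among the 21 promoters of 19 members (4.76%), against 3.73% of all 32851 promoters of the table. The Hoxa2 stretch held the Hox and Pbx motif TGATNNAT on the opposite strand at -111, a motif present in 3 member promoters (14.3%) and in 8.85% of all. The CDX motif TTTATNG was in 0 of the 21 member promoters and in 10.9% of all. The motifs did not overlap where found. A match describes the letters of these windows and shows no binding. Member promoters had a median GC content of 58% against 52.7% over all promoters.

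Tumour against adjacent tissue asks what the Hox genes did within double mutant colon. Of the anterior genes, 2 of 3 in Hox A and 2 of 4 in Hox B were called lower in tumours. In Hox C 0 of 1 and in Hox D 0 of 2 anterior genes were called. Hoxb5 showed the largest difference of the 33, and Hoxa9 was the 1 member called higher. Differences are on the log2 scale, with the standard error (SE) of the fit. At an adjusted p below 0.05 (limma), 6 of 33 members passed, which is 18.2% against 28.1% of all genes. Lower were 5 members, against a background of 13.8%, and higher was 1, against 14.3%. By position these were 4 of 10 anterior genes (Hoxa2, Hoxa3, Hoxb2 and Hoxb3, all lower), 1 of 9 central genes (Hoxb5) and 1 of 14 posterior genes (Hoxa9). By cluster they were 3 of 9 in Hox A, 3 of 9 in Hox B, 0 of 7 in Hox C and 0 of 8 in Hox D. In Hox C and Hox D together no member reached an unadjusted p of 0.05 (limma), as 6942 of all 18193 genes did. Of these members, Hoxc8, Hoxc13 and Hoxd1 lay near the lowest value, and Hoxd10, Hoxd11 and Hoxd13 varied widely within groups. The median difference was -0.14 over the members and 0.00 over all genes, and the share of members called lay below that of all genes. Without tumour replicate 2 the count was 3.

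**Figure D1:**
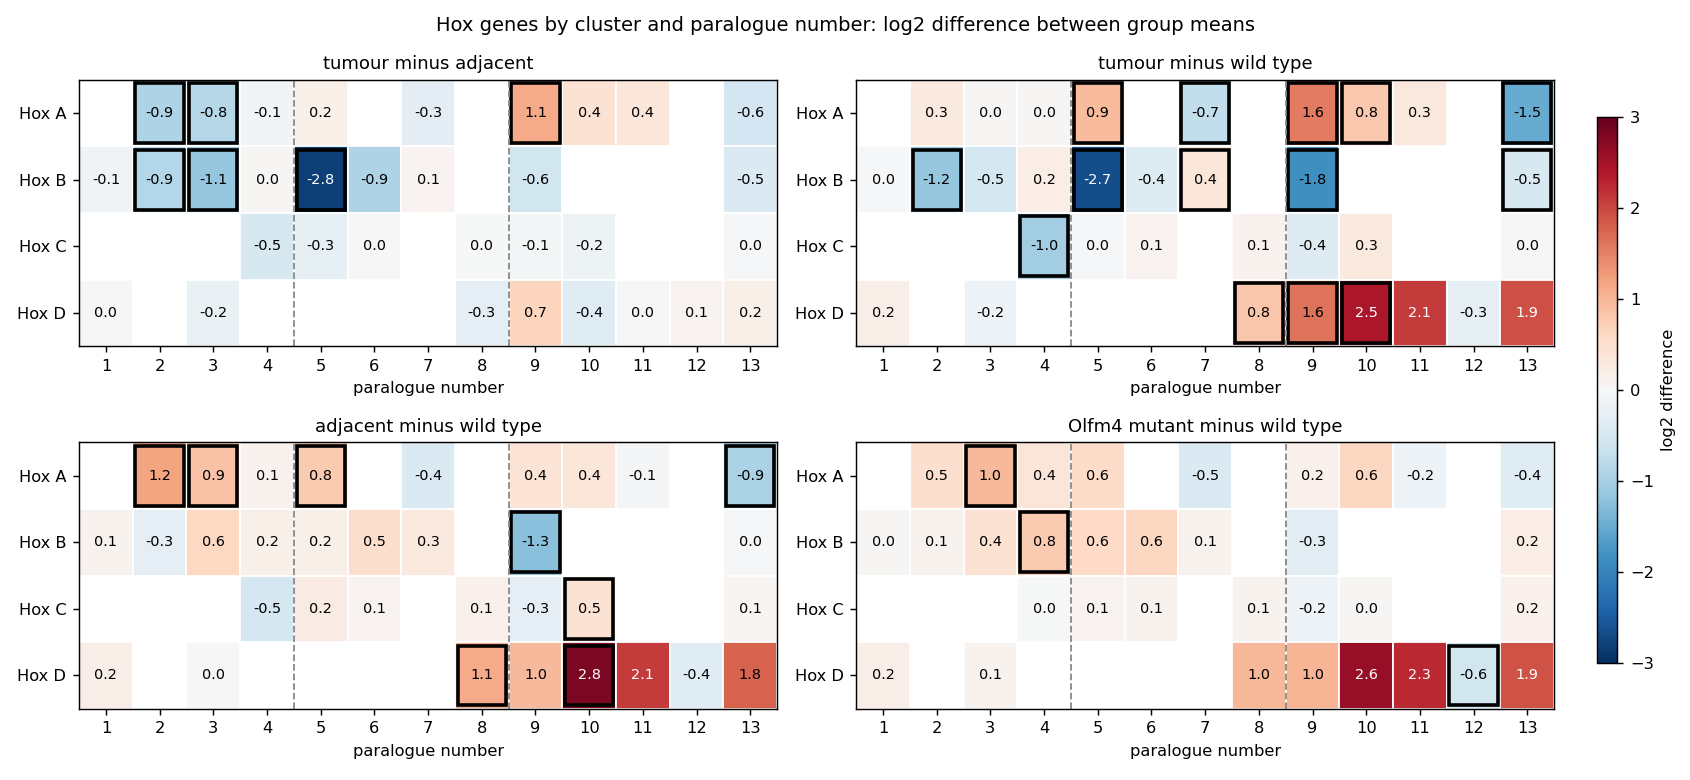
Log2 difference between group means for each measured Hox gene, by cluster (rows) and paralogue number (columns), in 4 comparisons; black frames mark an adjusted p below 0.05 (limma), dashed lines part the anterior, central and posterior genes, and blank cells were not measured. In tumour minus adjacent the frames lie on Hoxa2, Hoxa3, Hoxb2, Hoxb3, Hoxb5 and Hoxa9, and Hox C and Hox D hold none.

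Hoxb5 is known in mice for its part in gut mesenchyme and in the enteric neural crest. Its log2 values were 6.60, 6.31 and 5.24 in tumours, 9.05, 8.95 and 8.61 in adjacent tissue, 9.001, 9.66 and 9.26 in Olfm4 mutant, 9.87, 9.26 and 9.29 in APC mutant, and 10.31, 7.34 and 8.46 in wild type colon. All 3 tumours were lower than each of the other 12 arrays. Hoxb5 was 2.82 log2 units lower in tumours than in adjacent tissue, a 7.06-fold difference (log2 difference -2.82, SE 0.57, adjusted p = 0.0023 by limma). Against wild type colon the difference was -2.65 (SE 0.57, adjusted p = 0.0018). Leaving out any 1 array ended neither call.

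The antisense RNA Hoxb5os, a separate gene in the annotation, stood at 7.02, 4.25 and 5.09 in tumours and at 10.47, 9.90 and 9.70 in adjacent tissue. Wild type colon had 11.88, 9.23 and 9.16. Tumour arrays lay below all of the others, and the difference from adjacent tissue was -4.57 (SE 0.72, adjusted p = 0.00040 by limma). Other noncoding RNAs of the clusters with a probe set were Hoxa11os (-0.64, adjusted p = 0.12) and Hoxd3os1 (0.05, adjusted p = 0.74).

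Markers of muscle and nerve in the gut wall moved with these values. Smooth muscle markers averaged 9.94, 8.46 and 8.44 in tumours, 12.32, 12.06 and 11.76 in adjacent tissue, and 13.09, 11.70 and 11.83 in wild type colon. Neuron and glia markers averaged 6.74, 6.22 and 6.26 in tumours, 8.16, 8.25 and 8.06 in adjacent tissue, and 9.49, 7.34 and 7.85 in wild type colon. Wild type replicate 1 was highest in its group for Hoxb5, Hoxb5os and both marker lists, and tumour replicate 1 was highest among tumours for the same 4 measures. The part of these cells in the Hoxb5 result was not tested.

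**Figure D2:**
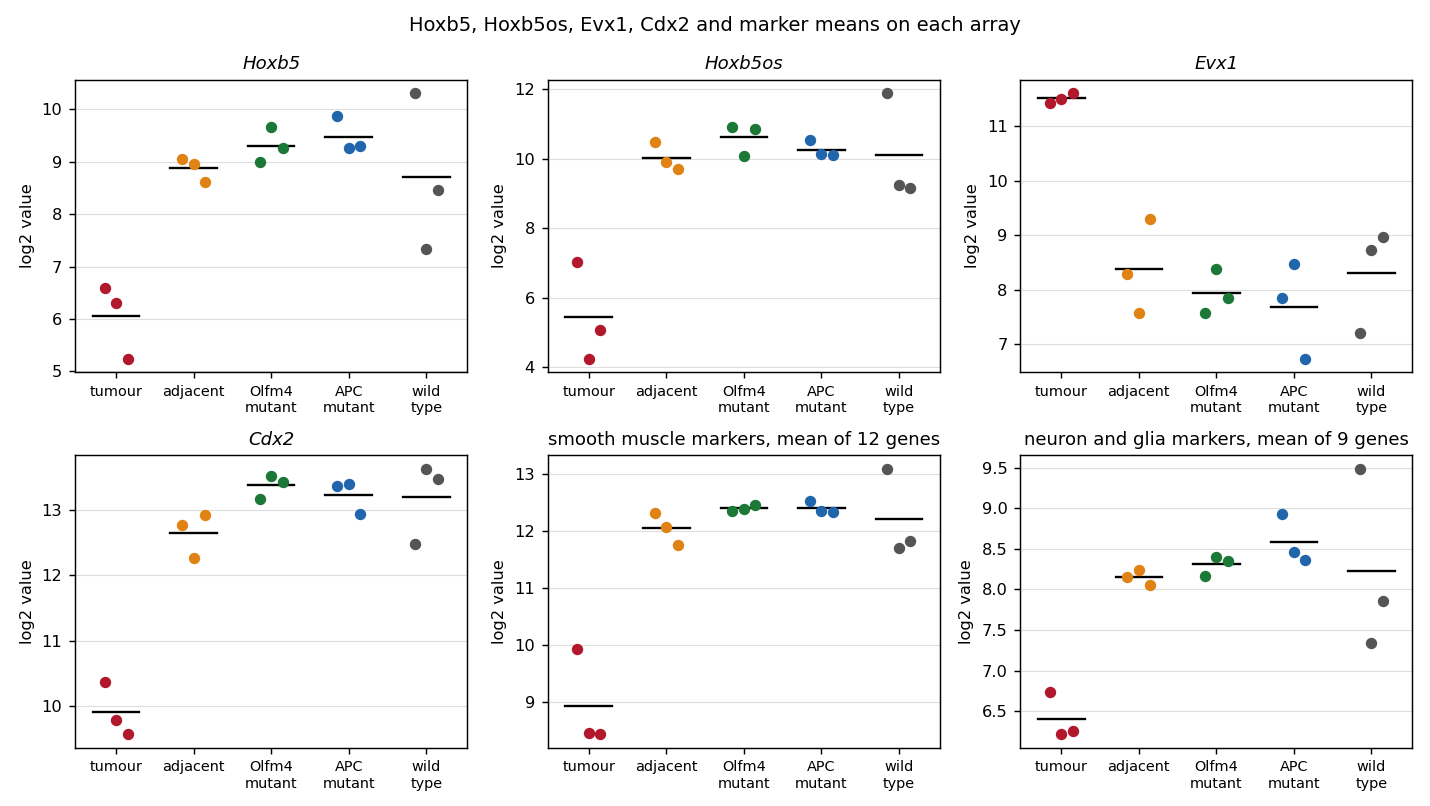
Log2 values on each array for Hoxb5, Hoxb5os, Evx1 and Cdx2, and the mean log2 value of the smooth muscle and of the neuron and glia markers; each point is 1 array, replicates 1 to 3 from left to right, and bars are means of 3 arrays. Tumours lie below every other array in all panels but that of Evx1, where they lie above, and the vertical axes differ between panels and do not start at 0.

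Hoxb3 helps to pattern the hindbrain. Its log2 values were 8.33, 6.96 and 7.01 in tumours, 8.81, 8.57 and 8.38 in adjacent tissue, 8.23, 8.68 and 8.35 in Olfm4 mutant, 8.16, 8.50 and 8.61 in APC mutant, and 8.53, 7.48 and 7.90 in wild type colon. Tumour replicate 1 lay just under the adjacent arrays and the other tumours well below them. The difference from adjacent tissue was -1.15 (SE 0.34, adjusted p = 0.022 by limma). It no longer passed without tumour replicate 2 (adjusted p = 0.096) or 3 (0.094), or without adjacent replicate 1 (0.075) or 2 (0.057), nor with the arrays of an animal averaged (0.14). The other Hoxb3 probe set differed by -0.52 (adjusted p over all probe sets 0.15). Against wild type the difference of the tumours was -0.54 (adjusted p = 0.21).

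Hoxa2, a selector gene of the hindbrain and pharyngeal arches, had log2 values of 5.81, 5.85 and 5.67 in tumours, 6.57, 6.43 and 7.09 in adjacent tissue, 5.58, 6.68 and 5.68 in Olfm4 mutant, 6.504, 6.07 and 5.98 in APC mutant, and 5.09, 5.52 and 5.85 in wild type colon. Adjacent tissue was above both the tumours and wild type colon with no overlap, while tumours and wild type overlapped. The tumours were lower than adjacent tissue (log2 difference -0.92, SE 0.28, adjusted p = 0.028 by limma). That call was lost without any 1 of the 3 tumour arrays (adjusted p = 0.059, 0.058 and 0.084 for replicates 1, 2 and 3) or adjacent replicate 3 (0.11), and with the arrays of an animal averaged (0.115). Adjacent tissue was higher than wild type colon by 1.21 (SE 0.28, adjusted p = 0.0079).

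Hoxa3, which is needed for the thymus and parathyroid, followed the same order. It averaged 9.19 ± 0.174 in tumours, 10.04 ± 0.0928 in adjacent tissue and 9.16 ± 0.462 in wild type colon (SD, n = 3 each). Tumours were lower than adjacent tissue by limma (log2 difference -0.85, adjusted p = 0.019), and its 3 further probe sets gave -0.77, -0.15 and 0.02 (adjusted p over all probe sets 0.016, 0.54 and 0.94). Hoxb2, a hindbrain gene, averaged 4.46 ± 0.0601 in tumours, 5.34 ± 0.0361 in adjacent tissue and 5.63 ± 0.385 in wild type colon. The tumour arrays, from 4.39 to 4.50, lay below all others, and differed by -0.88 from adjacent tissue (adjusted p = 0.0017 by limma). Among members that did not pass, Hoxb6 differed by -0.94 (adjusted p = 0.15), Hoxb13 by -0.47 (0.054), Hoxd9 by 0.67 (0.28) and Hoxd10 by -0.36 (0.83).

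Hoxa9, a regulator of blood progenitors that is also expressed along the posterior gut, was the exception in direction. Its log2 values were 12.50, 12.54 and 12.57 in tumours, 10.94, 11.44 and 11.80 in adjacent tissue, 10.63, 11.59 and 11.20 in Olfm4 mutant, 11.28, 10.90 and 11.04 in APC mutant, and 11.11, 10.82 and 11.03 in wild type colon. All 3 tumours lay above each of the other 12 arrays and within 0.1 of each other. The difference from adjacent tissue was 1.14 (SE 0.24, adjusted p = 0.0027 by limma), a 2.21-fold difference, and from wild type colon 1.55 (SE 0.24, adjusted p = 0.00014). Neither call was lost without any 1 array.

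The second Hoxa9 probe set gave another picture against wild type. It read 7.81, 8.08 and 8.32 in tumours, 7.14, 7.21 and 7.45 in adjacent tissue and 8.40, 8.11 and 8.02 in wild type colon. Tumours were above adjacent tissue on both probe sets, by 0.80 on this one (adjusted p over all probe sets 0.024 by limma), but overlapped wild type (-0.11, adjusted p = 0.73). Adjacent tissue was 0.91 below wild type on it (log2 difference -0.91, adjusted p = 0.011). On the used probe set adjacent tissue stood 0.41 above wild type (adjusted p = 0.22). Higher Hoxa9 in tumours than in wild type colon therefore rests on 1 of its 2 probe sets. Neutrophil markers averaged 8.62, 10.18 and 10.27 in tumours and 6.14, 6.53 and 8.38 in adjacent tissue, and their part in the result was not tested.

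**Figure D3:**
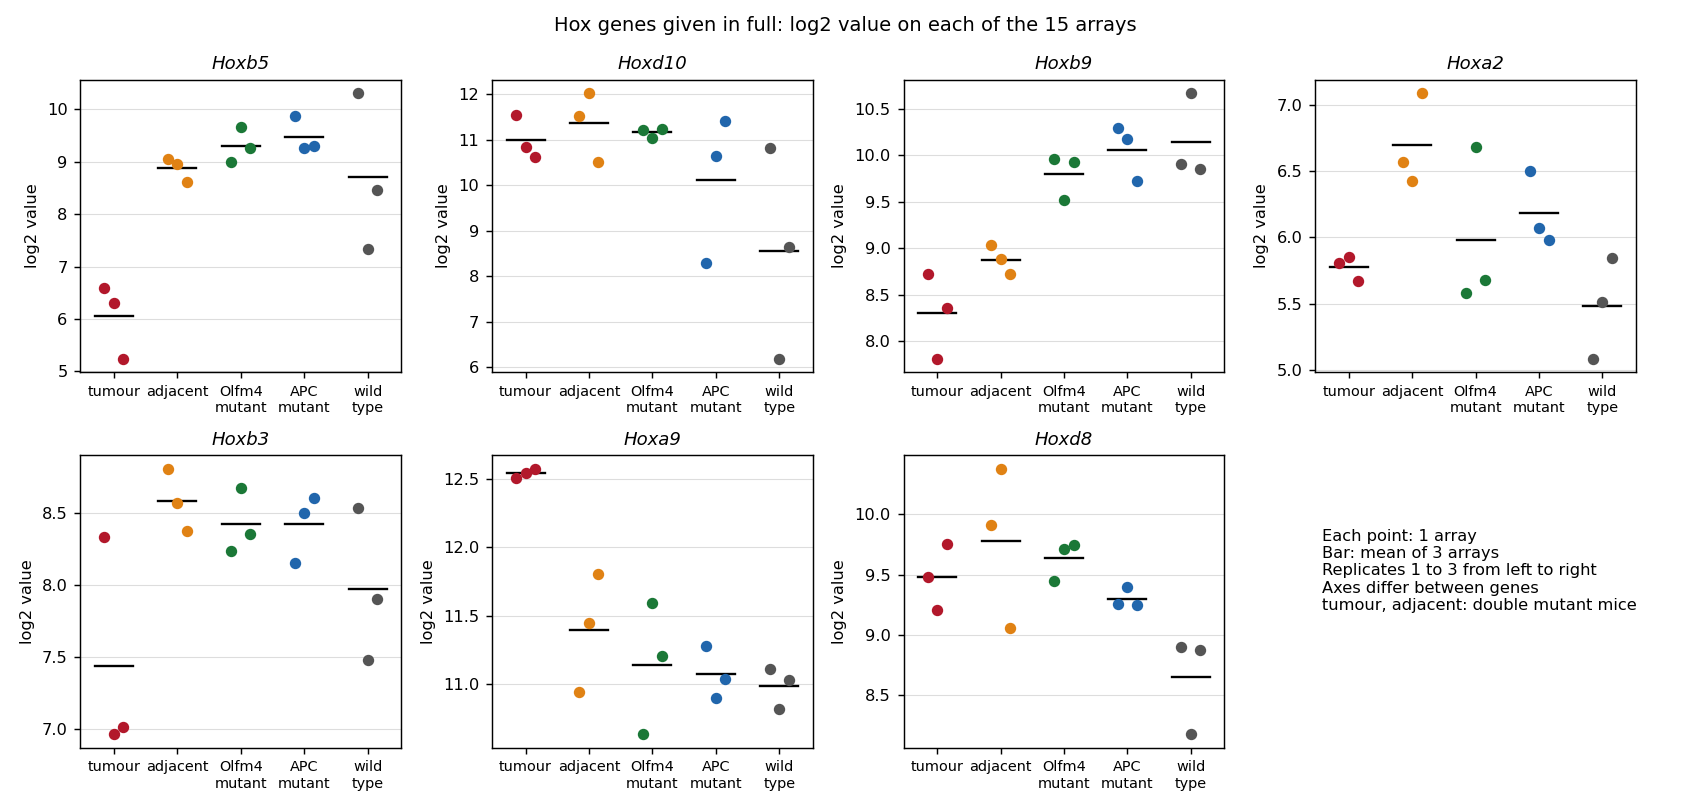
Log2 value of the 7 Hox genes described in full on each of the 15 arrays; each point is 1 array, replicates 1 to 3 from left to right, bars are means of 3 arrays, and the axes differ between genes and do not start at 0. Tumours lie below all other arrays for Hoxb5 and above all others for Hoxa9, and 1 wild type array stands at 6.18 for Hoxd10.

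Set against wild type colon, tumours differed in more Hox genes, and in both directions within each of Hox A and Hox B. Higher by limma were 7 of 33 members (Hoxa5, Hoxa9, Hoxa10, Hoxb7, Hoxd8, Hoxd9 and Hoxd10), against a background of 29.3%. Lower were 7 (Hoxa7, Hoxa13, Hoxb2, Hoxb5, Hoxb9, Hoxb13 and Hoxc4), against 20.1%. Together the 14 make 42.4% of members, against 49.4% of all genes. In Hox B 4 of 9 were lower and 1 was higher, and in Hox D 3 of 8 were higher and 0 lower. The median was 0.03 over the members and 0.11 over all genes.

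Posterior genes were called in both directions, also within Hox A. Hoxa13, which shapes digits and the hindgut with Hoxd13, averaged 4.88 ± 0.523 in tumours and 6.38 ± 0.171 in wild type colon (log2 difference -1.50, adjusted p = 0.00038 by limma). Hoxb13, known from the posterior colon and prostate, averaged 12.53 ± 0.114 in tumours and 13.04 ± 0.36 in wild type colon (-0.51, adjusted p = 0.021). Hoxa10, a uterine regulator, averaged 11.33 ± 0.254 in tumours and 10.51 ± 0.152 in wild type colon (0.81, adjusted p = 0.0027). Its other probe set differed by -0.22 (adjusted p over all probe sets 0.46). Hoxd9 averaged 10.66 ± 0.0667 in tumours and 9.02 ± 0.711 in wild type colon (1.64, adjusted p = 0.0057). On the probe sets used, the arrays of the groups did not overlap in any of these 4 genes, which were taken from the called members. It therefore adds no support to their calls. Of the remaining posterior members, Hoxd13 missed the threshold at 1.93 (adjusted p = 0.054) and Hoxd11 at 2.11 (0.056).

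Hoxb9, which patterns the thoracic skeleton, fell in both double mutant tissues. Its log2 values were 8.73, 7.81 and 8.36 in tumours, 9.03, 8.89 and 8.72 in adjacent tissue, 9.96, 9.52 and 9.93 in Olfm4 mutant, 10.29, 10.18 and 9.72 in APC mutant, and 9.90, 10.67 and 9.85 in wild type colon. All 6 double mutant arrays lay below all 9 others. The difference from wild type was -1.84 in tumours (SE 0.26, adjusted p = 7.9e-05 by limma) and -1.26 in adjacent tissue (SE 0.26, adjusted p = 0.0040), and both calls held without any 1 array. Between tumours and adjacent tissue it was -0.58 (adjusted p = 0.12), with 1 tumour array inside the range of adjacent tissue. The comparisons of tumour and of adjacent tissue share the 3 wild type arrays.

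Adjacent tissue against wild type colon compares double mutant tissue next to a tumour with wild type colon. Genotype and nearness to a tumour cannot be told apart in it. Called higher by limma were 6 of 33 members (Hoxa2, Hoxa3, Hoxa5, Hoxc10, Hoxd8 and Hoxd10), against a background of 17.7%. Called lower were 2 (Hoxa13 and Hoxb9), against 10.1%. The 8 make 24.2% of members, against 27.8% of all genes. Without adjacent replicate 3 the count was 4, and without wild type replicate 2 or 3 it was 5. The median was 0.18 over the 33 members and 0.13 over all genes. Hoxa13 averaged 5.44 ± 0.164 in adjacent tissue and 6.38 ± 0.171 in wild type colon (-0.95, adjusted p = 0.017). Hoxa5, which acts in lung and gut development, averaged 9.48 ± 0.421 in adjacent tissue and 8.71 ± 0.514 in wild type colon (0.78, adjusted p = 0.043). On the other Hoxa5 probe set the difference was 0.02 (adjusted p over all probe sets 0.97). Hoxc10 stood at 3.71 to 3.97 in adjacent tissue and 3.34 to 3.52 in wild type colon, near the lowest values of the table.

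Both of these comparisons with wild type ran along the 3-prime minus 5-prime difference given above. Olfm4 mutant against wild type did so too, as given below. With that difference as a covariate in the same limma model, 0 of 33 members passed in tumour or in adjacent tissue against wild type. Over all genes 1 and 0 passed, because the covariate nearly coincides with these groups, and the 2 cannot be told apart. The 3-prime minus 5-prime difference also parted tumours (4.70 to 5.17) from adjacent tissue (3.94 to 4.45) without overlap. Between these 2 groups 3 members still passed with the covariate (Hoxa2, Hoxa3 and Hoxb5), against 6 without it. The calls of Hoxa9, Hoxb2 and Hoxb3 ended. Of the 18193 genes 2292 passed, against 5112 without the covariate.

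Hoxd8, a central gene of Hox D, had log2 values of 9.48, 9.20 and 9.75 in tumours, 9.91, 10.38 and 9.06 in adjacent tissue, 9.45, 9.71 and 9.75 in Olfm4 mutant, 9.25, 9.40 and 9.25 in APC mutant, and 8.90, 8.17 and 8.87 in wild type colon. The 3 wild type arrays were lower than each of the other 12. Adjacent tissue was 1.13 above wild type (SE 0.29, adjusted p = 0.011 by limma) and tumours 0.83 (SE 0.29, adjusted p = 0.028). Without wild type replicate 2 the values were 0.89 (adjusted p = 0.051) and 0.59 (0.12). The tumour call was also lost without tumour replicate 1 (0.061) or 3 (0.10), and with animal as a random block (0.066). In Olfm4 mutant colon Hoxd8 was 0.99 higher (adjusted p = 0.053), and in APC mutant colon 0.65 (adjusted p = 0.67), both short of the threshold. The Hoxd8 promoter above is the 1 of 21 member promoters with the TCF/LEF motif (4.76%, against 3.73% of all promoters). A link between the motif and these values was not tested.

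Hoxd10, which acts in limb and motor neuron development, had log2 values of 11.54, 10.85 and 10.62 in tumours, 11.53, 12.02 and 10.52 in adjacent tissue, 11.21, 11.03 and 11.23 in Olfm4 mutant, 8.29, 10.64 and 11.40 in APC mutant, and 10.81, 6.18 and 8.63 in wild type colon. Wild type replicate 2 was the lowest array and APC mutant replicate 1 the next lowest, and wild type replicate 1 lay among the mutant arrays. The difference from wild type was 2.81 in adjacent tissue (SE 0.96, adjusted p = 0.045 by limma) and 2.46 in tumours (SE 0.96, adjusted p = 0.0497). Each call ended without any 1 of several arrays, and with the arrays of an animal averaged (adjusted p = 0.10 and 0.089) or animal as a random block (0.061 and 0.062). Without wild type replicate 2 the differences were 1.63 (adjusted p = 0.18) and 1.28 (adjusted p = 0.22). In Olfm4 mutant colon the difference was 2.62 (adjusted p = 0.11), and in APC mutant colon 1.57 (adjusted p = 0.77).

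The neighbours of Hoxd10 varied over the same arrays, and were looked at array by array after their values were seen. Hoxd11, a limb gene, stood at 8.50, 7.98 and 7.83 in tumours, 8.15, 9.25 and 6.87 in adjacent tissue, 8.13, 8.26 and 8.42 in Olfm4 mutant, 5.16, 7.42 and 7.75 in APC mutant, and 7.97, 4.38 and 5.63 in wild type colon. Hoxd13, the last gene of the cluster, stood at 12.64, 12.64 and 12.36 in tumours, 12.37, 12.92 and 11.84 in adjacent tissue, 12.71, 12.47 and 12.43 in Olfm4 mutant, 10.13, 12.22 and 12.77 in APC mutant, and 12.20, 8.60 and 11.05 in wild type colon. A further Hoxd13 probe set did not show this, at 6.37, 6.15 and 6.07 in wild type colon, whereas that of Hoxd8 read 6.15, 5.42 and 5.51. On the probe sets used, wild type replicate 2 was the lowest of all 15 arrays for each of Hoxd8, Hoxd9, Hoxd10, Hoxd11 and Hoxd13, but not for Hoxd12, where it was the highest at 5.02. The SD within groups was 1.33 for Hoxd10, 1.17 for Hoxd11 and 1.06 for Hoxd13, at the 99.7, 99.5 and 99.3 percentile of all genes, whose median was 0.228. Smooth muscle markers averaged 12.52 on APC mutant replicate 1, above the other APC mutant arrays (12.36 and 12.33), and 11.70 on wild type replicate 2, below the other wild type arrays, and their part in these values was not tested.

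**Figure D4:**
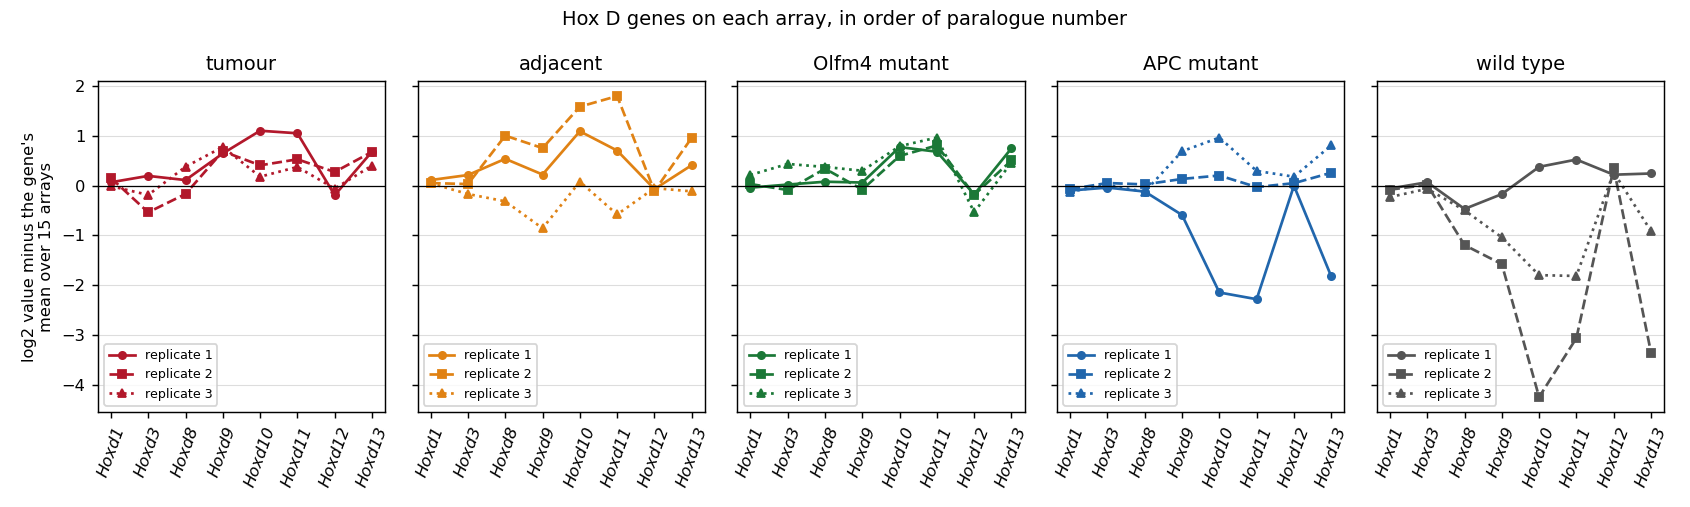
Log2 value of each Hox D gene minus its own mean over the 15 arrays, in order of paralogue number, with 1 line for each array and 1 panel for each group. Wild type replicates 2 and 3 and APC mutant replicate 1 dip at Hoxd10, Hoxd11 and Hoxd13, while Hoxd1, Hoxd3 and Hoxd12 vary less.

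Olfm4 mutant against wild type colon asks what loss of Olfm4 alone does. The 3-prime minus 5-prime difference also parted these groups, at 2.35 to 3.31 in Olfm4 mutant and 1.96 to 2.12 in wild type arrays. With it as a covariate 0 of 33 members and 23 of all genes passed by limma, against 1440 genes without it. Loss of Olfm4 and this difference cannot be told apart here. Called by limma were 3 of 33 members (9.09%), against 7.92% of all genes. Hoxa3 averaged 10.13 ± 0.404 in Olfm4 mutant and 9.16 ± 0.462 in wild type colon (0.97, adjusted p = 0.033). Hoxb4, a regulator of blood stem cells, averaged 7.19 ± 0.161 in Olfm4 mutant and 6.40 ± 0.205 in wild type colon (0.79, adjusted p = 0.024), while its other probe set differed by -0.09 (adjusted p over all probe sets 0.72). Hoxd12 averaged 4.37 ± 0.204 in Olfm4 mutant and 4.95 ± 0.0673 in wild type colon (-0.58, adjusted p = 0.025). These calls did not hold up: 0 members passed without Olfm4 mutant replicate 2, Olfm4 mutant replicate 3 or wild type replicate 2, and 9 passed without wild type replicate 1. Shares over all genes are not given for these runs, so the changes cannot be read as particular to Hox genes. Olfm4 mutant replicate 2 stood apart in the added RNAs, at 3.31 against 2.35 and 2.44 in its group. Its Hox values went both ways: it was the highest of the 3 for Hoxa2, Hoxa3, Hoxa9 and Hoxb5, among others. It was the lowest for Hoxa13, Hoxb2, Hoxb9 and Hoxd10, among others, and lay between the other arrays for Hoxb4 and Hoxd12.

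APC mutant against wild type colon asks the same of the APC mutation alone. By limma 0 of 33 members passed, as did 0% of all genes. At an unadjusted p below 0.05 there were 5 members (Hoxa2, Hoxa3, Hoxa5, Hoxd8 and Hoxd9), each with a higher mean in APC mutant colon, and 1324 of all genes. The differences of the members ran from -0.25 to 1.57 with a median of 0.03. For Hoxd9, at 1.01, the adjusted p was 0.65.

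The interaction asks whether the APC mutation shifted a gene differently in colon without Olfm4, taking adjacent minus Olfm4 mutant less APC mutant minus wild type. Here too genotype and nearness to a tumour cannot be told apart in the adjacent group. By limma 0 of 33 members passed, as did 0% of all genes. At an unadjusted p below 0.05 there were 6 members (Hoxa10, Hoxb4, Hoxb9, Hoxb13, Hoxc10 and Hoxd12) and 1901 of all genes. For Hoxb9 the interaction was -0.85 (adjusted p = 0.46).

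Genes that border the clusters, are known to act with Hox genes or proteins, or share a family with such genes gave the setting of these changes. These lists were chosen with results of these data known. Cdx1 and Cdx2 are caudal homeobox factors that set intestinal identity and act upstream of Hox genes in the embryo. They were the 2 of 5 genes of their list called in tumours against adjacent tissue. Both were lower, as were 13.8% of all genes. Cdx2 had log2 values of 10.37, 9.80 and 9.57 in tumours and 12.77, 12.26 and 12.93 in adjacent tissue (log2 difference -2.74, adjusted p = 2.3e-05 by limma). Cdx1 differed by -2.20. Against wild type, Cdx1 was also lower in adjacent tissue (-1.20, adjusted p = 0.00066).

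Among 13 genes beside the clusters that are no Hox genes, 3 were higher and 2 lower in tumours than in adjacent tissue, against 14.3% and 13.8% of all genes, and the median was -0.08. Evx1, the homeobox gene beyond Hoxa13 at the posterior end of Hox A, stood at 11.43, 11.50 and 11.61 in tumours, 8.28, 7.57 and 9.29 in adjacent tissue and 7.21, 8.73 and 8.97 in wild type colon. It was 3.13 above adjacent tissue (SE 0.53, adjusted p = 0.00067 by limma), while its neighbour Hoxa13 differed by -0.56 (adjusted p = 0.14). Snx10 and Skap2, beyond the anterior end of Hox A, were higher by 1.19 and 0.39. Ttll6, beyond Hoxb13, was lower by 1.22 on the log2 scale (-1.22), and Jazf1 by 1.01 (-1.01). Lnpk, beyond the posterior end of Hox D, was 1.22 higher in adjacent tissue than in wild type colon (adjusted p = 0.0026).

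Of 10 genes of the TALE homeodomain family, which includes Hox cofactors, 2 were higher and 1 lower in tumours than in adjacent tissue. This share was near the 28.1% of all genes, and the median was -0.48. Tgif2 (2.29) and Tgif1 (1.12), repressors of the family and not Hox cofactors, were the higher 2, and Pknox2 (-0.76) was the lower. No Meis or Pbx gene was called, nor was Pknox1. Pknox1, a partner of Pbx proteins, was lower in adjacent tissue than in wild type colon by limma (-3.32, adjusted p = 0.00029), with 5.80, 6.26 and 5.46 in adjacent tissue and 9.07, 9.37 and 9.03 in wild type colon. Along the groups it ran with the added RNAs, at 8.47, 6.93 and 8.33 in Olfm4 mutant colon, where replicate 2 had the largest 3-prime minus 5-prime difference.

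Polycomb and trithorax genes, whose products hold Hox genes silent or active, had 8 of 22 members higher in tumours than in adjacent tissue by limma and 0 lower, against 14.3% and 13.8% of all genes. Their median difference was 0.36, against 0.00 over all genes. The polycomb protein Cbx2 differed by 1.40, the histone methyltransferase Ezh2 by 1.37, Bmi1 by 0.88 and Cbx8 by 0.71. The trithorax methyltransferases Kmt2a and Kmt2b were not called there. In adjacent tissue against wild type colon 8 of the 22 were higher and 3 lower, against 17.7% and 10.1% of all genes. By limma Kmt2a was among the lower (-1.47, adjusted p = 0.0012) and Kmt2b among the higher (0.83, adjusted p = 0.0048).

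For retinoic acid signalling 1 of 15 genes was higher and 3 were lower in tumours than in adjacent tissue, a share near the 28.1% called over all genes, with a median of -0.11. The receptor Rarb differed by 1.27, the synthesising enzyme Aldh1a1 by -2.26, the binding protein Crabp1 by -1.73 and the receptor Rxra by -0.80. Of 12 transcription factors of gut mesenchyme, 1 was higher (Prrx1, 2.82-fold) and 3 were lower (Hand2, which acts in enteric neurons, -2.26, Tcf21, -1.20, and Foxf1, -0.82), against 28.1% of all genes called either way, with a median of -0.12.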

How the data were processed

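Total RNA of mouse colon was labelled and hybridised to arrays, and the deposited table holds log2 values, for which the submitters' processing notes give RMA and the program Partek 6.5 as the tools of the authors. RMA scales the arrays to a common distribution. The genome build is not given in the sources used here. Array medians ran from 6.35 to 6.47.

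Of 45101 probe sets, 34945 had 1 gene symbol, 932 several and 9160 none, and 64 were controls. The probe set with the highest mean stood for each of 18193 genes. With limma 3.58.1 (R 4.3.3; functions lmFit and eBayes) 1 model with a mean for each of the 5 groups took in all 15 arrays, and 6 comparisons were adjusted by Benjamini-Hochberg over all genes, with calls at an adjusted p of 0.05. SE is that of a difference of 3 arrays against 3. The fit was tested on simulated data.

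Full values were given for members called with an absolute log2 difference of at least 1 in tumour against adjacent tissue or in adjacent, Olfm4 mutant or APC mutant against wild type, and for the other lists up to 4 called genes. The members and the 15 lists were chosen with earlier results of these data known. The added RNA measure is the mean over dap, lys, phe and thr. Marker means are means of log2 values. Tumour and adjacent arrays of the same number come from the same animal by their titles, and their deviations from the group means correlated at 0.281, -0.0155 and 0.182 for replicates 1, 2 and 3. Alternatives were other probe set rules, cyclic loess, a filter at the median mean, array weights, a robust prior with a trend, a model of the compared groups alone, a fold of at least 1.5, the added RNA covariate, animal as a random block or averaged, a replicate block, and each array left out.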

Additional observations from a re-analysis of the deposited data

How the results depend on the processing

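The main counts of Hox genes called were 6 for tumour against adjacent tissue, 14 for tumour against wild type, 8 for adjacent against wild type and 3 for Olfm4 mutant against wild type. In the same order, 5112, 8996, 5056 and 1440 of all genes were called. For APC mutant against wild type and for the interaction the count of Hox genes was 0 under every alternative run. The added RNA covariate gave 3, 0, 0 and 0 Hox genes, and 2292, 1, 0 and 23 of all genes. Under it Hoxa9 in tumour against wild type turned to -0.14 (limma, adjusted p = 0.99) and Hoxa2 in adjacent against wild type to -0.64 (adjusted p = 0.9997). The covariate with a replicate block gave 3 for tumour against adjacent tissue, and the replicate block alone gave 7 and ended no call among the genes described in full. Averaging the arrays of an animal gave 3 for tumour against adjacent and 4 for adjacent against wild type, and ended the calls of Hoxa2 and Hoxb3 in tumour against adjacent tissue and both Hoxd10 calls. Animal as a random block gave 9, 11, 6 and 4, and ended the Hoxd8 call in tumour against wild type and both Hoxd10 calls. Using only the groups compared gave 3 for adjacent and 0 for Olfm4 mutant against wild type. The filter at the median mean left 11 members and gave 5 for adjacent against wild type. For Olfm4 mutant against wild type the mean of all probe sets gave 1, any probe set 5, the trend and robust prior 5 and array weights 9. With 1 array left out, the counts ran from 3 to 6 for tumour against adjacent tissue, 11 to 14 for tumour against wild type, 4 to 10 for adjacent against wild type and 0 to 9 for Olfm4 mutant against wild type. The lowest came without tumour replicate 2 (3), without adjacent replicate 3 (4), and, for adjacent tissue, without wild type replicate 2 or 3 (5 each). Cyclic loess gave 6, 12, 7 and 3 Hox genes, and 5200, 8936, 4797 and 1309 of all genes. It ended both Hoxd10 calls (limma, adjusted p = 0.058 in tumour and 0.053 in adjacent tissue). For the other settings counts over all genes are not given here, so their changes cannot be read as particular to Hox genes. The cause of these changes was not tested beyond what the settings themselves alter.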
